A study of Brassica carinata with 12 samples.

Results

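RNA-seq libraries of haploid Brassica carinata anthers at mitosis were set against libraries of haploid anthers at meiosis, 3 against 3, which is 6 of the 12 libraries of the series. The members are the libraries titled BCMi (haploid, mitosis) and BCMe (haploid, meiosis). B. carinata is a mustard whose B genome is that of B. nigra and whose C genome is that of B. oleracea. By its labels the haploid form (genotype BC) came from B. oleracea var. alboglabra as seed parent and B. nigra as pollen parent, and carries 1 set of each genome. The tetraploid form (genotype BBCC) of the same cross went through ovule culture and colchicine and has 3 libraries at mitosis and 3 at meiosis, so every group carries both genomes. The mitosis libraries are labelled as anther at gametogenesis and the meiosis libraries as young anther at sporogenesis. The extraction protocol speaks of floral buds. Whether replicate libraries stem from different plants is stated nowhere in the labels, so a p-value here reflects variation among libraries that may be technical only.

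In a flowering plant's anther, diploid mother cells normally go through meiosis inside a nursing cell layer, the tapetum, and release microspores. Each microspore then divides by mitosis into a large vegetative cell, which later grows the pollen tube, and a small generative cell, which forms the sperm. The anther changes its gene use strongly between these steps, as meiotic and tapetal programmes end and pollen wall and pollen storage programmes start. In a haploid hybrid the chromosomes at meiosis have no homologous partner to pair with. In bulk anthers, fewer cells of a type and less RNA per cell cannot be told apart.

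Total counts were 16016458 to 16594913 in the mitosis libraries and 16077024 to 16670493 in the meiosis libraries. Within a stage, log2 values correlated across genes with Pearson's r of 0.988 to 0.9897, against 0.7546 to 0.7591 between stages. The spread between libraries was alike at both stages. Genes at 1 to 4 CPM (counts scaled to library size) had a median coefficient of variation of 21.7% at mitosis and 20.8% at meiosis, and genes at 64 CPM or more had 3.34% and 3.42%. By their IDs, 37470 genes belong to the 8 chromosomes of the B subgenome and 52279 to the 9 of the C subgenome, with 7400 unplaced. The files pair no ID with a gene name, so genes are described by class and chromosome, and the stage labels were not checked against marker genes.

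The comparison asked which genes change between meiosis and mitosis in haploid anthers. Of the 97149 genes in the table, 51860 had enough counts to be tested. Of these, 17292 were called higher at mitosis (33.3% of genes tested) and 15770 lower (30.4%), at an adjusted p under 0.05 (edgeR quasi-likelihood, Benjamini-Hochberg). A change of at least 2-fold was called for 10220 genes higher (19.7%) and 7978 lower (15.4%). The 3 mitosis libraries lay above all 3 meiosis libraries in 18013 genes (34.7%) and below all of them in 16514 (31.8%). These calls are relative to the bulk of genes, which the TMM scaling centres. Over the 34968 genes at 1 CPM or more in all 6 libraries the median log2 fold change was -0.00495, while the deposited FPKM values, which carry no such centring, put it at -0.236 on the log2(FPKM + 0.1) scale. With FPKM and limma-trend (pseudocount 1) the split turned, to 13474 genes higher and 20652 lower, so that 39.5% of calls were higher against 52.3% with counts.

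Called genes were sorted by their level in each library. A stage counted as off where all 3 libraries were under 0.2 CPM, and as on where all 3 were at 1 CPM or more. On this scale 3 reads, the floor used here for a count of 0, are 0.196 to 0.204 CPM in the mitosis libraries and 0.170 to 0.176 CPM in the meiosis libraries. So 3 reads still count as off in every haploid library except mitosis replicate 2, where at most 2 do. Switched on were 1186 genes, off at meiosis and on at mitosis (2.29% of genes tested). Switched off were 494 genes, on at meiosis and off at mitosis (0.953%). With off set at 3 reads or fewer in each library, a rule chosen after seeing the data, 1186 genes were switched on and 552 switched off. Graded genes were on at both stages and changed in level, with 11148 higher (21.5%) and 11333 lower (21.9%). The remaining called genes had a stage between off and on or were faint at both, with 4958 higher (9.56%) and 3943 lower (7.6%), and are named intermediate here. Every gene that was off at one stage and on at the other was also called. Off at both stages were 35815 genes, and of the 45289 genes not tested, 26274 had 0 counts in all 6 haploid libraries.

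**Figure D1:**
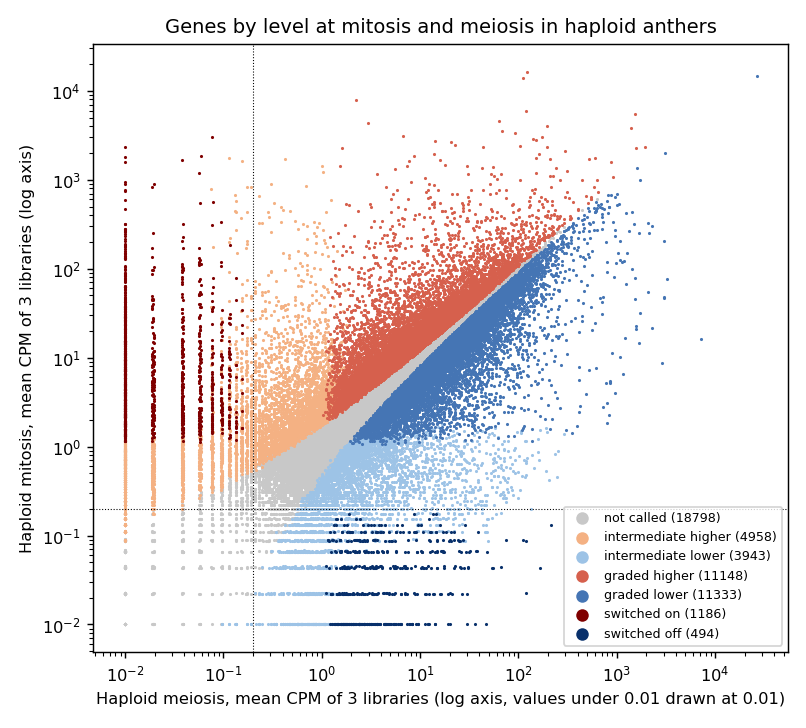
Mean CPM at mitosis (vertical, log axis) against mean CPM at meiosis (horizontal, log axis) for the 51860 tested genes, each point 1 gene, coloured by class, with dotted lines at 0.2 CPM. The 1186 switched-on genes stand at the upper left and the 494 switched-off genes at the lower right, and the 11148 graded higher and 11333 graded lower genes flank the grey band of 18798 genes that were not called.

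Genes that came on at mitosis were faint to very abundant. The 1186 switched-on genes had a median level of 5.35 CPM at mitosis (interquartile range 2.40 to 14.96), and 602 of them had 0 counts in all 3 meiosis libraries. Their median fitted log2 fold change was 8.32, which depends on the prior count for genes at 0, and it was 5.83 with those genes set at their lower bound against a floor of 3 counts per library. The 10 switched-on genes with the most counts stood between 890.2 and 3005 CPM at mitosis and at no more than 0.0762 CPM at meiosis, and they lie on 5 chromosomes (B01, B05, B06, C05 and C06). All 10 were also called higher at mitosis in the tetraploid libraries, where 37.3% of all genes tested were. The same held for the 10 graded higher genes with the most counts.

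The switched-on gene with the most counts was BcaB05g21609 on chromosome B05. It had 2856, 2959 and 3200 CPM in the mitosis libraries, against 0, 0.170 and 0.0586 CPM in the meiosis libraries. The meiosis values rest on 4 reads in all, and the stages are apart in every library. It was called higher (adjusted p = 2.38e-42, edgeR), but the size of the change is set by those few reads. The ratio of reads pooled per stage, scaled by the summed TMM-scaled library sizes, was 39193. Its exact 95% interval of 15307 to 143848 covers counting error only. The fitted log2 fold change was 15.12, and it was 16.32 without meiosis replicate 2, 14.58 without meiosis replicate 1 and 12.04 on log2(FPKM + 1). Per length, its deposited FPKM averaged 4558 ± 332.9 at mitosis and 0.0854 ± 0.0968 at meiosis (SD, n = 3 each).

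Genes that rose were mostly in use at meiosis already by the 1 CPM rule, 11148 of 17292. Of all 51860 genes tested, 34968 were on at both stages, a similar share, so this does not set genes that rose apart. The majority among genes that rose is lost with a 2-fold minimum (4238 of 10220) and with on set at 5 CPM (7144 of 17292). Fewer genes in general reach 5 CPM, a mean of 26569 per mitosis library against 41355 at 1 CPM (total counts). The share of all genes on at both stages was not computed at 5 CPM, so this loss is not particular to genes that rose. The 11148 graded higher genes had a median of 17.8 CPM at mitosis and 8.78 CPM at meiosis, with a median log2 fold change of 0.81, or 1.75-fold. Changes under 2-fold made up 62.0% of the class and 2- to 4-fold changes 26.9%. A change of 16-fold or more was fitted for 249 of these genes, 2.23% of the class. The 10 with the most counts reached 3536 to 16440 CPM at mitosis and stood at 2.24 to 1534 CPM at meiosis.

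The graded higher gene with the most counts was BcaB04g20927 on B04. It had 16814, 16379 and 16126 CPM in the mitosis libraries, against 117.9, 126.9 and 120.2 CPM in the meiosis libraries. No other gene took as many counts in the mitosis libraries, where it held 1.49% to 1.55% of all counts, against 0.0126% to 0.0134% in the meiosis libraries. It was 135.1-fold higher at mitosis (log2 fold change 7.08, SE 0.04, adjusted p = 1.42e-45, edgeR).

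Fewer genes went silent than came on, and they were less abundant. The 494 switched-off genes had a median of 0.0436 CPM at mitosis and 3.28 CPM at meiosis (interquartile range 1.94 to 7.56), and 144 had 0 counts in all 3 mitosis libraries. Their median fitted log2 fold change was -7.00, or -5.38 with the genes at 0 set at their bound. The 10 with the most counts lay at 0.0226 to 0.132 CPM at mitosis and 47.4 to 212.5 CPM at meiosis. All 10 were called lower at mitosis in the tetraploid too, where 34.7% of all genes tested were. The same held for the 10 graded lower genes with the most counts.

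The switched-off gene with the most counts was BcaC06g31996 on C06. It had 0.0655, 0.136 and 0.196 CPM in the mitosis libraries, against 214.2, 215.2 and 208.2 CPM in the meiosis libraries. The mitosis values rest on 6 reads in all. It was called lower (adjusted p = 6.16e-36, edgeR). Its reads, pooled per stage and scaled by the summed TMM-scaled library sizes, were 1606 times as high at meiosis. The exact 95% interval was 737.5 to 4376, for counting error only. The fitted log2 fold change was -10.57, with -10.97 to -10.26 when single libraries were left out and -7.63 on log2(FPKM + 1).

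Genes that fell mostly stayed in use at mitosis by the 1 CPM rule, 11333 of 15770, where 34968 of all 51860 genes tested were on at both stages. The majority among genes that fell is lost too with a 2-fold minimum (3723 of 7978) and with on set at 5 CPM (7816 of 15770). The limit given above for 5 CPM holds here too. The 11333 graded lower genes had a median of 10.6 CPM at mitosis and 20.1 CPM at meiosis, with a median log2 fold change of -0.74. Changes under 2-fold made up 67.1% of the class and 2- to 4-fold changes 23.4%, and 157 genes (1.39%) were at least 16-fold lower by the fit. Which graded side was larger depended on the setting. It turned without haploid meiosis replicate 3 (10698 higher and 10673 lower) and with a 2-fold minimum (4238 and 3723), and FPKM with limma-trend (pseudocount 1) gave 7830 higher and 15392 lower.

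The graded lower gene with the most counts, BcaB01g02286 on B01, was the most counted gene of the haploid at meiosis. It had 14598, 15037 and 14284 CPM in the mitosis libraries, against 25797, 27083 and 26867 CPM in the meiosis libraries. It took 1.32% to 1.38% of all counts at mitosis and 2.75% to 2.87% at meiosis, and so remained among the most abundant genes while falling 1.82-fold (log2 fold change -0.86, SE 0.03, adjusted p = 3.27e-25, edgeR).

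**Figure D2:**
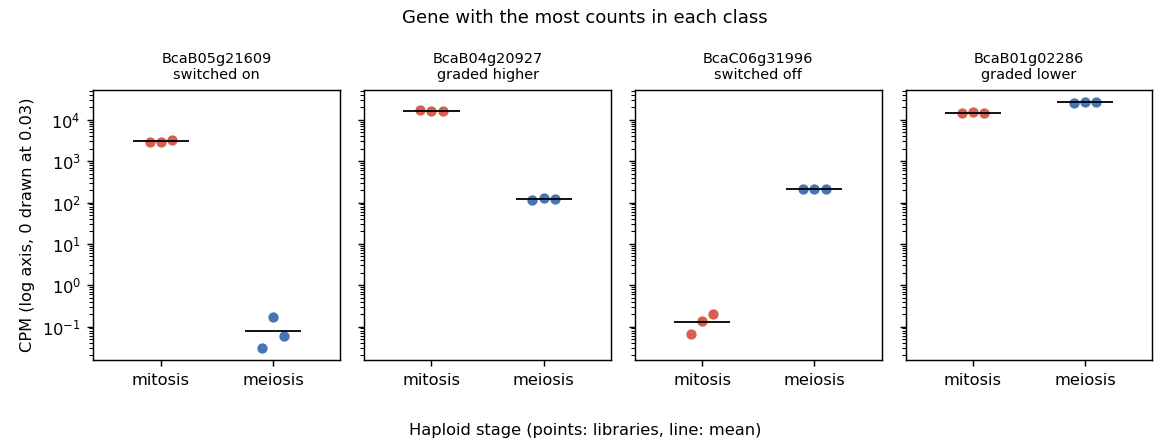
CPM (log axis, 0 drawn at 0.03) of the gene with the most counts in each of the 4 classes in the 3 haploid mitosis libraries (left in each panel) and the 3 haploid meiosis libraries (right). Points are libraries and lines are means. BcaB05g21609 averages 3005 CPM at mitosis and 0.0762 CPM at meiosis, while BcaB01g02286 averages 14640 and 26582 CPM.

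The turnover of the transcript pool lay mainly in graded genes. Graded higher genes held 52.8% ± 0.0722 of all counts at mitosis and 21.9% ± 0.0327 at meiosis (SD, n = 3 each), and graded lower genes 24.3% ± 0.178 and 58.0% ± 0.0603. Switched-on genes held 3.96% ± 0.111 at mitosis and 0.00351% ± 0.000284 at meiosis. Switched-off genes held 0.00210% ± 0.000376 and 0.428% ± 0.000785. Intermediate higher genes held 4.3% ± 0.043 at mitosis and 0.23% ± 0.00375 at meiosis, and intermediate lower genes 0.183% ± 0.00254 and 2.74% ± 0.024. Uncalled genes held 14.3% ± 0.0595 and 16.4% ± 0.0294, and untested genes 0.197% ± 0.00343 and 0.211% ± 0.00434. Since the classes were chosen on these libraries, the shares describe the size of the turnover and are not tested.

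**Figure D3:**
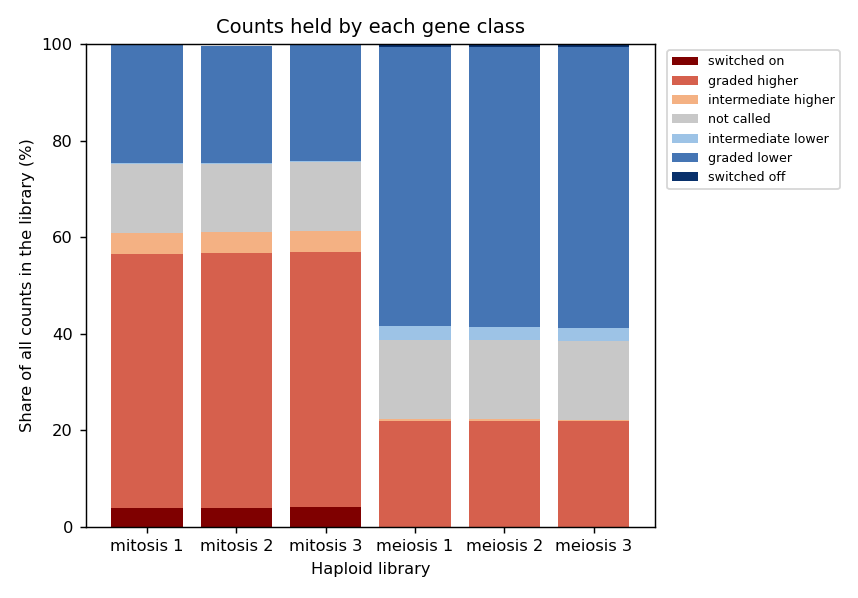
Share of all counts (vertical, percent) held by each gene class in the 3 mitosis libraries (left) and the 3 meiosis libraries (right) of haploid anthers. Graded higher genes fill 52.7% to 52.9% of the mitosis libraries, and graded lower genes fill 57.9% to 58.1% of the meiosis libraries.

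Counts were more concentrated at mitosis. Each library's 100 top genes together held 19.68%, 20.08% and 20.12% of counts in the mitosis libraries, against 15.74%, 15.81% and 15.50% in the meiosis libraries. The groups did not overlap, and they differed by 4.28 percentage points (two-sided exact permutation p = 0.1, the smallest that 3 libraries against 3 can give). The difference was 10.7 points on FPKM and 6.94 over a list of 1000 genes per library. The lists themselves were exchanged, with 13 genes among the top 100 by mean CPM at both stages. Of the top 100 at mitosis, 74 were graded higher, 12 switched on, 10 intermediate higher and 4 graded lower. Of the top 100 at meiosis, 89 were graded lower, 10 graded higher and 1 not called. Among all genes tested, 21.5% were graded higher, 2.29% switched on, 9.56% intermediate higher and 21.9% graded lower. The lists were ranked on level at a compared stage, which favours calls in that direction in advance, so these counts are a description only. The chromosomes with the most top genes were C06 (13), B01 (11) and C03 (10) at mitosis, and B03 (11) at meiosis. Unplaced were 10 top genes at mitosis and 9 at meiosis. Of the 51860 genes tested, 3437 are on C06, 3497 on B01, 2554 on C03 and 3048 on B03, and 4386 are unplaced.

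The number of genes in use did not clearly move. Genes at 1 CPM or more on total counts numbered 41380, 41109 and 41577 in the mitosis libraries, against 41383, 41438 and 41087 in the meiosis libraries (difference 52.7, exact two-sided permutation p = 0.8). The direction depended on the scale, since TMM-scaled CPM gave 1121 more genes at mitosis and a minimum of 5 CPM on total counts gave a difference of -824.7 (exact permutation p = 0.1 each). Without meiosis replicate 3 it was -55.2 and without mitosis replicate 3 -58.2 (exact permutation p = 0.8 and 0.7).

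The B and C subgenomes had nearly the same shares of switched-on and graded genes. On B chromosomes 2.34% of 20054 tested genes were switched on, and on C chromosomes 2.31% of 27420. Graded higher genes made up 21.5% on B and 21.3% on C, and graded lower genes 22.4% and 21.8%. The switched-off share was higher on B, at 1.12% against 0.879% on C, a difference that was not tested. The tetraploid libraries, sorted by the same rule, gave 2.06% and 1.73% for switched-off genes and 4.36% and 4.19% for switched-on genes. Unplaced genes had 1.89% switched on and 0.661% switched off.

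Single chromosomes spread more widely than the subgenomes. B04 had the highest share of switched-on genes, 72 of 2389 or 3.01%, followed by C06 with 99 of 3437 or 2.88%. C08 had the lowest, 35 of 2567 or 1.36%. In the tetraploid libraries B04 was again highest, at 5.57%, and C08 lowest, at 3.04%, while C06, at 4.39%, stood below 7 other chromosomes. Switched-off genes ranged from 0.546% on C09 (13 of 2383) to 1.59% on B04 (38 of 2389), with B06 next at 1.58% (35 of 2213). In the tetraploid B06 was highest, at 2.53%, ahead of C02 (2.43%), B08 (2.38%), B07 (2.33%) and B04 (2.30%), and C08 lowest, at 1.32%, with C09 at 1.43%. Across the 17 chromosomes the haploid and tetraploid shares had Pearson's r of 0.859 for switched-on and 0.846 for switched-off genes. These describe points that share their genes and annotation. Shares of genes called higher ran from 30.2% on C08 to 35.0% on B07, and of genes called lower from 28.8% on C03 to 33.2% on B02, so no chromosome was far from the 33.3% and 30.4% of all genes.

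**Figure D4:**
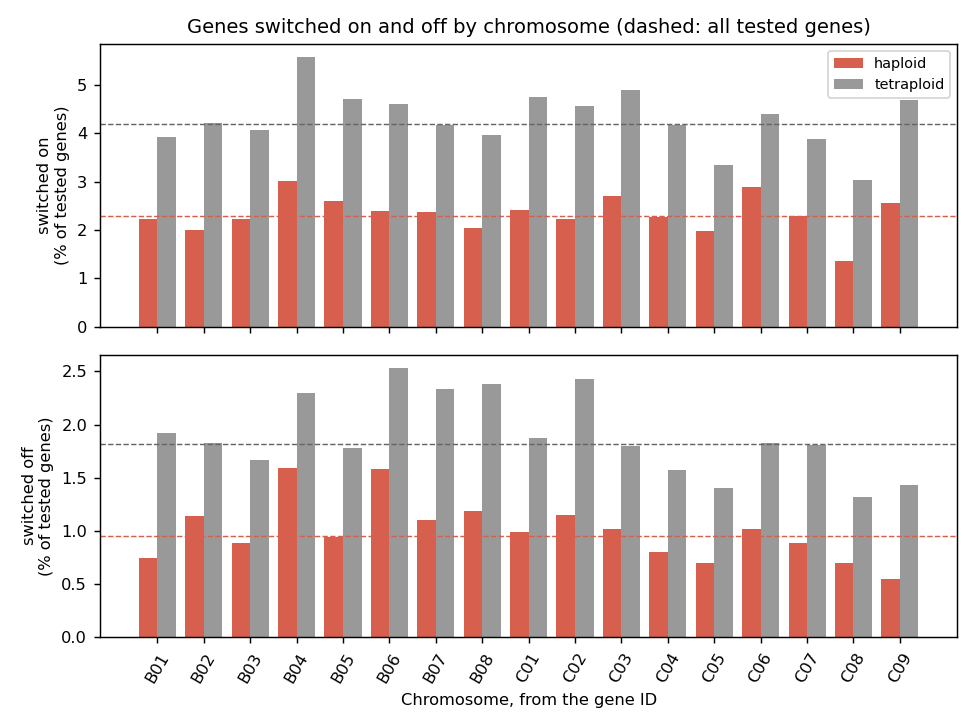
Percent of tested genes switched on (upper panel) and switched off (lower panel) per chromosome in haploid libraries (left bar of each pair) and in tetraploid libraries sorted by the same rule (right bar), with dashed lines for all tested genes. C08 has the lowest switched-on share in both, at 1.36% in the haploid and 3.04% in the tetraploid.

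The share of all counts that came from a chromosome moved on nearly all of them, beyond the spread between libraries. Libraries of the stages did not overlap for 16 of the 17 chromosomes (exact two-sided permutation p = 0.1 each, and 0.106 after Benjamini-Hochberg adjustment over the 17), and they overlapped on C05. B01 fell to 8.43% ± 0.0334 at mitosis, against 9.77% ± 0.107 at meiosis (SD, n = 3 each). C04 was at 4.89% ± 0.0195 and 5.94% ± 0.00556, and C08 at 4.09% ± 0.00675 and 4.88% ± 0.00557. Among the 6 chromosomes with a higher share at mitosis, the gains were largest on C03, at 5.63% ± 0.0355 against 4.38% ± 0.0124, C09, at 5.57% ± 0.110 against 4.51% ± 0.0106, and C06, at 7.36% ± 0.0432 against 6.43% ± 0.0131. In the tetraploid, C03 held 2.88% at mitosis and 2.56% at meiosis. Unplaced genes held 8.57% ± 0.0217 at mitosis and 7.26% ± 0.0130 at meiosis.

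Several of these movements rested on 1 gene. Without the gene that changed most on each chromosome, the direction turned on 4 of the 17. The B01 difference of -1.35 percentage points held a change of -1.47 in BcaB01g02286. The rest of B01 rose by 0.127, about the SD of 0.123 between the meiosis libraries. This rise depended on the genes left out, since B01 fell by 0.501 without the genes in the top 100 of any haploid library. On FPKM with all genes B01 fell by 1.82. The B04 difference of 0.540 held a rise of 1.5 in BcaB04g20927, and the rest of B04 fell by 0.964. On C09 a single gene rose to 1.28% of counts at mitosis, against 0.0118% at meiosis, and the rest of C09 fell by 0.205. On B03 the difference of -0.223 became 0.0933. C03, where no gene moved by more than 0.299, kept a rise of 0.953 without it, C06 kept 0.386 and B05 kept 0.271. With each such gene left out, the stages did not overlap on any of the 17 chromosomes. Leaving out the 191 genes in the top 100 of any haploid library turned the direction on 4 chromosomes too (B03, B04, B05 and C05), and left C03 with a rise of 0.168, C06 with 0.582 and C09 with 0.133. On FPKM, B04 libraries of the stages overlapped (difference 0.0439, exact permutation p = 0.3).

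**Figure D5:**
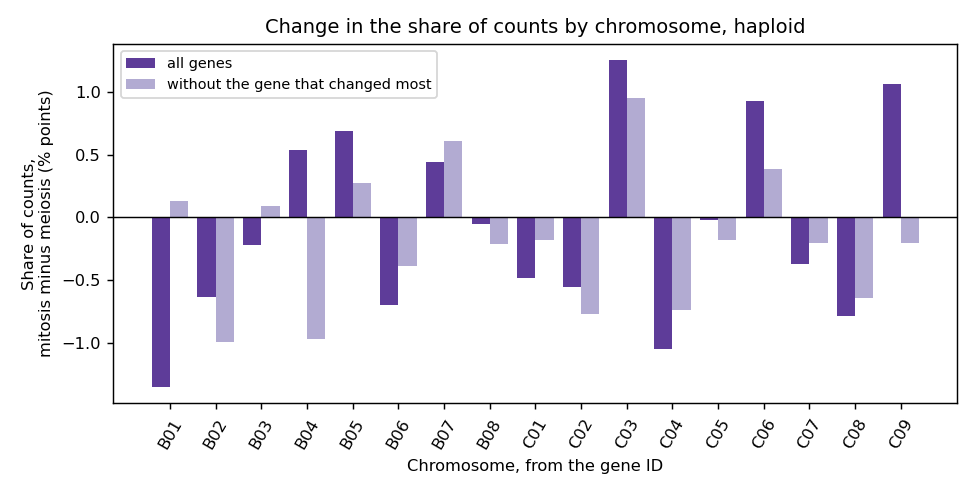
Difference in the share of all counts between haploid mitosis and haploid meiosis (mitosis minus meiosis, percentage points) per chromosome, with all genes (dark bars) and without the gene that changed most on that chromosome (light bars). The bars point in opposite directions on B01, B03, B04 and C09, and C03 stays highest, at 1.25 with all genes and 0.953 without its most changed gene.

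B genes took 44.32% ± 0.1002 of placed counts at mitosis and 45.08% ± 0.0248 at meiosis (SD, n = 3 each), a difference of -0.761 percentage points (two-sided exact permutation p = 0.1). On FPKM it was -3.92. It shrank to -0.266 without the genes in the top 100 of any haploid library (exact permutation p = 0.1). With C03 genes left out it was -0.0868, and the mitosis and meiosis values overlapped (exact permutation p = 0.3).

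Switched genes had a switched neighbour more frequently than their overall share, though most had none, and the difference was not tested. The order of IDs along a chromosome is taken from their numbers, since the files give no coordinates. Of the 644 placed switched-on genes whose next ID was also tested, 77 (12%) had a switched-on neighbour, where 2.32% of placed tested genes were switched on. For switched-off genes it was 24 of 271 (8.86%, against 0.979%). Graded genes showed little of this, at 24.3% against 21.4% for higher and 25.9% against 22.1% for lower ones. Reads of near-identical neighbouring copies could be split or shared between them. The labels do not say how such reads were counted.

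Runs of 3 or more consecutive switched-on genes numbered 11 and held 41 genes. The longest, of 7 genes on B01, averaged 2.56 to 2366 CPM per gene at mitosis in the haploid and 14.2 to 2930 CPM in the tetraploid. A run of 5 genes on B03 averaged 5.34 to 321.5 CPM, and a run of 5 on B04 averaged 2.09 to 14.5 CPM. C06 held 4 of the 11 runs, each of 3 genes, and the highest gene in them averaged 1664 CPM at mitosis. Switched-off genes formed 2 runs of 3, on B04 and C01. The switched-on share varied little along the ID order of a chromosome, at 2.58% in the outermost segments and 2.05% to 2.41% in the inner ones.

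Switched genes had shorter median lengths than graded higher genes, as implied by the ratio of counts to deposited FPKM. This length is an estimate in bases for genes that reach 50 counts in a library, with a median SD of 0.052 on the log2 scale across libraries. Its median was 909 over 1052 switched-on genes, 1466 over 11094 graded higher genes, 1007 over 362 switched-off genes and 1139 over 11319 graded lower genes, against 1214 over 41205 tested genes. At matched level, between 16 and 64 CPM over the 6 libraries, the median was 1592 for genes called higher, 1200 for genes called lower and 1337 for genes not called. The same order of higher above lower was seen at 4 to 16 CPM (1360 and 1116) and above 64 CPM (1420 and 1080). Genes not called had 1164 and 1498 there. Switched and graded genes were not matched by level. Their medians at mitosis were 5.35 CPM for switched-on and 17.8 CPM for graded higher genes, so their length difference is not separated from level.

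The tetraploid libraries moved mostly the same way. Their levels set no haploid class, but they share the filter, scaling and spread estimate of the fit, and the 6 haploid libraries alone gave 10993 graded higher and 11372 graded lower genes. Of the 1186 switched-on genes, 1173 (98.9%) were called higher at mitosis in the tetraploid, where 37.3% of all genes tested were. Of the 494 switched-off genes, 482 (97.6%) were called lower there, against 34.7% of all genes. For graded genes it was 78.5% of the higher and 83.0% of the lower. By level, 873 of the 1186 genes were switched on in the tetraploid too, and 343 of the 494 were switched off. Over all genes tested, 4.19% were switched on and 1.82% switched off in the tetraploid. Levels of switched-on genes at mitosis were lower in the haploid, with a median of 5.35 CPM against 14.8 CPM in the tetraploid. The mean at mitosis was higher in the tetraploid for 889 of the 1186, and for 25018 of all 51860 genes tested. These levels are a description, since the genes were chosen on the haploid libraries. A test of the difference in stage change between haploid and tetraploid (interaction term, edgeR) called 30.5% of all genes, with the change more positive in the haploid for 15.6% and more negative for 14.9%. It called 115 of the switched-on genes, 54 more positive and 61 more negative, and 64 of the switched-off genes, 15 and 49. The haploid values that chose these genes also enter this test, so their counts and signs are a description only.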

How the data were processed

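Reads of anther libraries were counted per gene by the authors. The counts they deposited are whole numbers that were not normalised, as the values show. The deposited FPKM table was also made by the authors, by a tool that no label names. The submitters' processing notes name featureCounts 2.0.1, TopHat2, HISAT2 2.1.0 and Bowtie2 2.2.3 with no role. Not given in the sources used here are the build, annotation, strand setting and treatment of multi-mapping reads.

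The test on counts was that of edgeR 4.0.16 in R 4.3.3 (trimmed mean of M-values, TMM, factors, default filter, 1 mean per group over all 12 libraries, two-sided quasi-likelihood test), with Benjamini-Hochberg adjustment over 51860 genes. CPM are TMM-scaled unless given on total counts. An SE is the size of the log2 value over the square root of its F statistic. The fit was tested on simulated data with 1 spread for all genes and 50 genes changed at each size. It recovered 52% of 1.5-fold, 90% of 2-fold and 98% of 4-fold changes. Of the unchanged genes, 6 were called. Far fewer genes were changed there than were called here, so the simulation does not cover changes on that scale. Values per library were compared with exact permutation tests. Classes, thresholds and comparisons were chosen with earlier results of these data known. Named genes are the gene with the highest mean CPM in its higher stage in each of the 4 classes, since IDs could not be paired with names. The planned marker lists and sequences were therefore not used here. DESeq2 1.42.0 and limma 3.58.1 served as alternatives. Floors cover counting error only.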

Additional observations from a re-analysis of the deposited data

Results flagged for a closer look

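A test of the difference between the stage change of the haploid and that of the tetraploid (interaction term, edgeR's quasi-likelihood test, 30.5% of genes tested called) passed for 3 of the 4 named genes. The named genes were picked for their haploid levels, which also enter this test. The count of 3 is therefore no rate, and the values below describe single genes. The stage change of BcaB05g21609 was larger in the haploid, with an interaction of 4.71 on the log2 scale (adjusted p = 1.26e-11, edgeR), as it averaged 0.0762 CPM at meiosis in the haploid, against 2.21 CPM in the tetraploid, and its haploid meiosis level rests on 4 reads. For BcaB04g20927 the interaction was -3.60 (adjusted p = 3.81e-31, edgeR), with 121.7 CPM at meiosis in the haploid, against 6.66 CPM in the tetraploid. For BcaB01g02286 it was 0.99 (adjusted p = 3.59e-21, edgeR), with 14640 CPM at mitosis in the haploid, against 4552 CPM in the tetraploid.

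The interaction was called for 115 of the switched-on genes (9.70%), 64 of the switched-off (12.96%), 4794 of the graded higher (43.0%) and 4576 of the graded lower genes (40.4%). Switched genes have few or no reads at their off stage, so the test can miss differences in them. Their lower shares therefore do not show that they differ less between haploid and tetraploid than graded genes do.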

How the results depend on the processing

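The called totals, the classes and the log2 fold changes of the 4 named genes were recomputed under other settings. The genes called fell to 10220 higher and 7978 lower with a 2-fold minimum, and graded genes to 4238 and 3723. Switched-on and switched-off genes numbered 602 and 144 where off meant 0 counts, and 565 and 153 where on meant 5 CPM, which left 7144 graded higher genes. The B share difference was -3.92 percentage points on FPKM, -0.266 without the top genes and -0.0868 without C03. The top-gene difference was 10.7 on FPKM and 6.94 over 1000 genes. The difference in genes at 1 CPM or more was -61.7 on FPKM, -824.7 at 5 CPM and 1121 on TMM-scaled CPM (chosen after seeing the data), and -58.2 to 175.8 with single haploid libraries left out (-55.2 without meiosis replicate 3). The other settings moved the size of no called total or class by more than 1.5 times. Members changed more than sizes on FPKM (pseudocount 1), where 881 of the 1186 switched-on and 369 of the 494 switched-off genes kept their class. The 4 named genes kept their direction and call in all 56 refits. On the log2 scale, the size for BcaB05g21609 ran from 12.04 to 16.32 and for BcaC06g31996 from -10.97 to -7.63. Replicate numbers did not pair the samples (correlations of deviations -0.0231 to -0.00909), and a replicate block gave 17065 genes higher and 15547 lower. Depth limits genes under 0.2 CPM, where 3 reads decide the class.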

Other observations

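1 gene on C09 held 0.254% of counts at mitosis and 0.00150% at meiosis in the haploid, but 7.92% and 0.131% of summed FPKM, with a mean of 97259 FPKM at mitosis. Its length implied by the ratio was 20 bases. The C09 share of summed FPKM differed by 7.83 percentage points between mitosis and meiosis, against 1.06 for counts.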
